A study of Homo sapiens with 6 samples.

Results

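DNA replication starts at origins that are licensed in G1 phase. The origin recognition complex (ORC), CDC6 and CDT1 load the ring of MCM proteins onto DNA, and geminin (GMNN) inhibits CDT1 after S phase begins. CDC45 and the GINS complex then join the MCM ring to make the active helicase, and polymerases alpha, delta and epsilon copy the strands behind it, with the sliding clamp PCNA and its loader RFC. Ribonucleotide reductase, thymidylate synthase and thymidine kinase supply the deoxynucleotides, and many of these genes are targets of the E2F transcription factors, which are active in proliferating cells. The 52 genes described here cover these steps. They were chosen by name, and all 52 were found in the deposited table of 58735 genes.

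The study measured RNA from 3 libraries with an shRNA against HYOU1 (shHYOU1) and from 3 libraries with a control shRNA (shControl). HYOU1 encodes a chaperone of the endoplasmic reticulum. Every library is labelled Hep3B, a line from a human hepatocellular carcinoma; there are a total of 6, and the labels give no clone, shRNA sequence or time after transduction. Nothing in the labels tells whether the 3 replicates of a group came from separate cultures, so the spread behind the p-values may be technical only. In bulk RNA, fewer cells in S phase and less of a transcript per cell cannot be told apart.

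The libraries held between 16893091 and 18233240 fragments, recovered from the deposited FPKM (fragments scaled by gene length and library size). HYOU1 was at 2.35, 2.32 and 2.37 FPKM in shHYOU1 libraries 1, 2 and 3, against 37.6, 58.2 and 59.5 FPKM in shControl libraries 1, 2 and 3, as the labels have it. Of 14 hepatocyte markers, 2 (HNF4A and FOXA1) reached a mean of 1 FPKM, and ALB, APOB and TTR were listed at 0 in every library, so the labelled cell type lacked defining markers. shControl replicate 1 stood apart: its log2 values correlated across genes at 0.906 and 0.892 with those of shControl replicates 2 and 3, which correlated with each other at 0.971. Mitochondrial genes held 3.39%, 3.84% and 3.52% of the fragments of shHYOU1 libraries 1, 2 and 3, against 7.59%, 5.17% and 4.96% of those of shControl libraries 1, 2 and 3; the part of this difference in the results was not tested. Calls and counts are therefore also given without shControl replicate 1.

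MCM6 rose and GINS2, GINS4 and RRM2 fell in shHYOU1 libraries, and most of the other replication genes differed by small amounts in both directions. The test took in genes whose mean reached 1 FPKM (12448, all 52 replication genes among them) with limma on log2(FPKM + 0.1), and a gene was called at an adjusted p under 0.05. With all 6 libraries 1 of the 52 genes rose, where 6.60% of all tested genes rose. Another 3 of the 52 fell, where 5.66% of all tested genes fell. The other 48 genes did not pass. The median log2 fold change of the 52 genes was -0.09, against 0.04 over all tested genes, with 23 values above and 29 below 0. The median size of the change, regardless of sign, was 0.17 for the 52 genes and 0.34 for all tested genes. For 45 of the 52 genes the 95% interval of the log2 fold change lay wholly within a 2-fold change, which held for 62.7% of all tested genes.

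CDT1 was the one gene at or past 2-fold with all 6 libraries, where 8.72% of all tested genes were. Without shControl replicate 1 more genes passed, here and across the table. In that fit 9 of the 52 genes rose, where 24.6% of all tested genes rose, and 12 fell, where 19.7% of all tested genes fell. Together this is 40.4% of the 52 genes, against 44.3% of all tested genes. The median log2 fold change of the 52 genes was 0.00, none reached 2-fold (7.05% of all tested genes did), and 51 intervals lay within a 2-fold change. A correction of each library for GC content, with all 6 libraries, gave 6 rises and 7 falls, 25.0% of the 52 genes, where 20.4% of all tested genes rose and 20.2% fell, 40.6% together. With the GC correction and without shControl replicate 1, 10 of the 52 rose and 12 fell, where 25.0% and 23.6% of all tested genes did, 48.6% together. All 13 genes called with the GC correction and all 6 libraries were also called in the same direction without shControl replicate 1. None of the 52 genes was called in opposite directions by these fits.

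**Figure D1:**
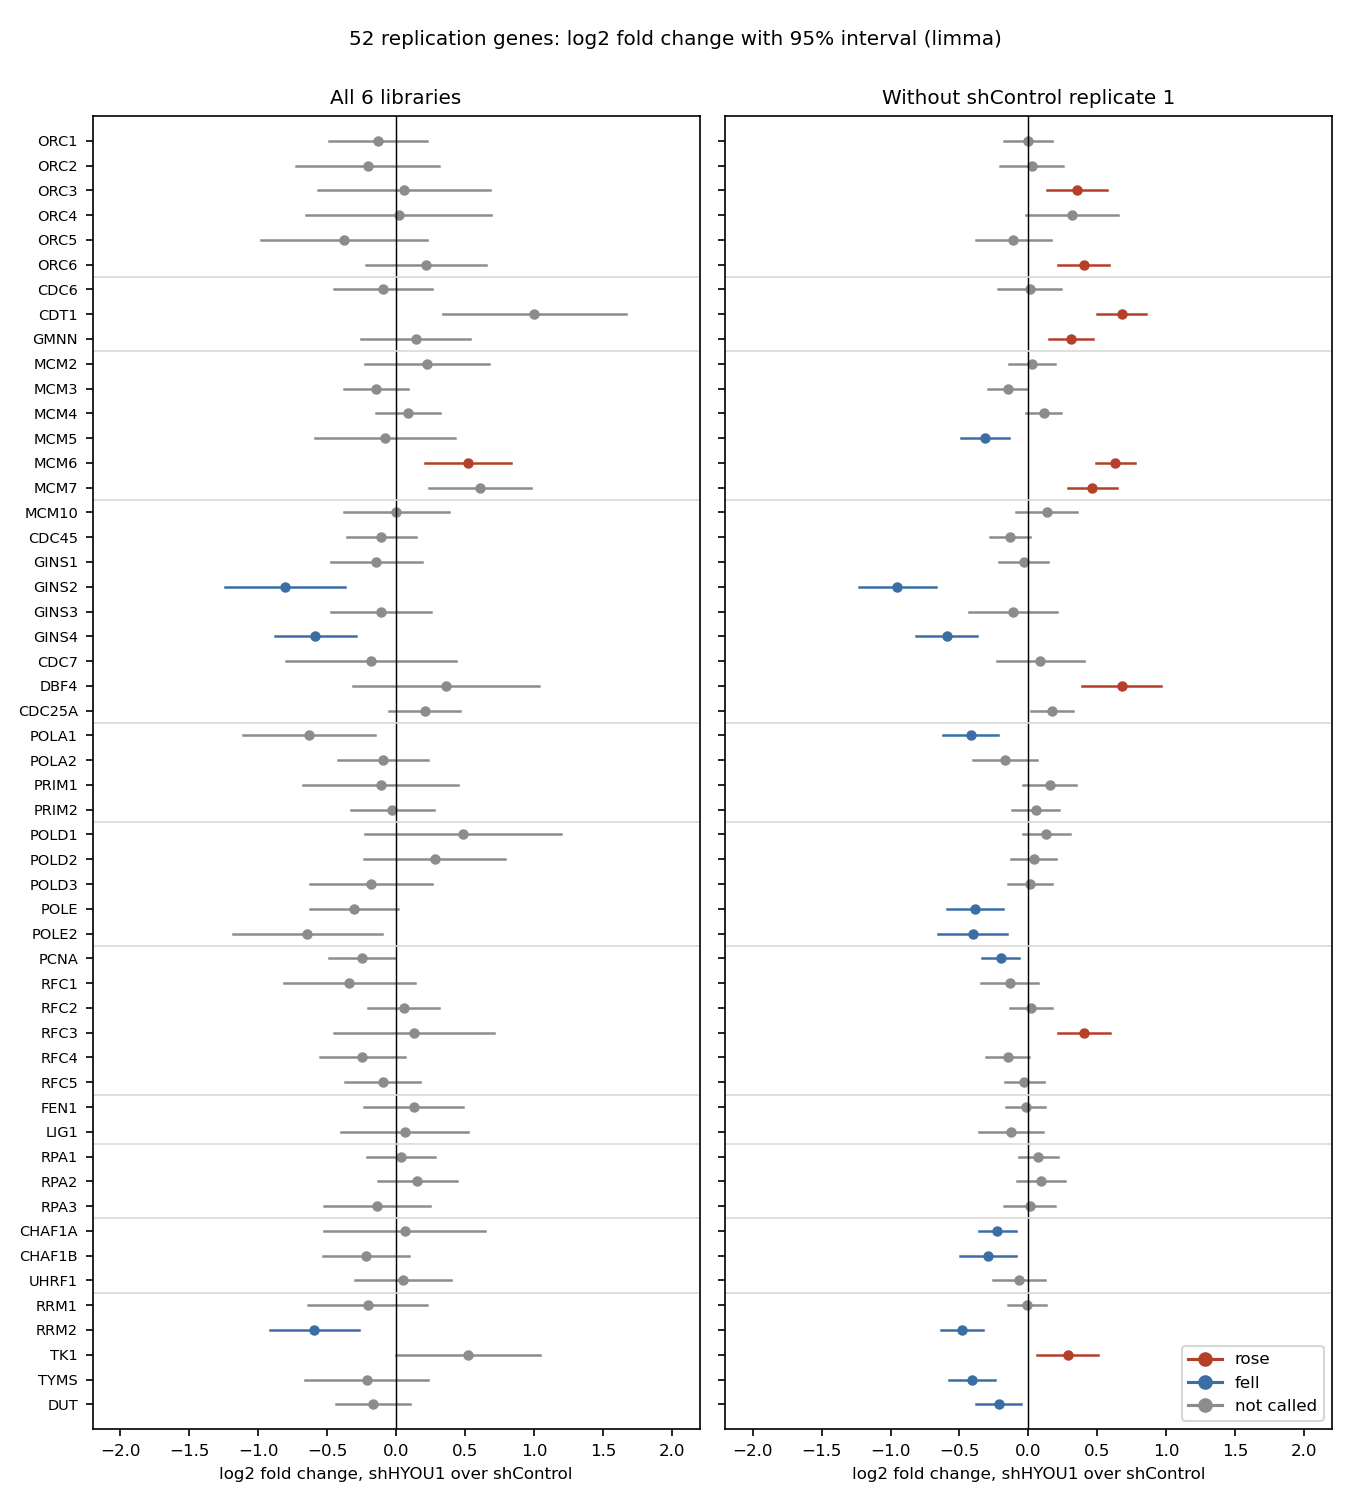
Each point is the log2 fold change of a replication gene, shHYOU1 over shControl, and each line its 95% interval from limma; grey lines part the functional groups. With all 6 libraries (left panel) 1 gene rose and 3 fell; without shControl replicate 1 (right panel) 9 rose and 12 fell.

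shControl replicate 1 departed from the other controls along GC content, in the replication genes as in all genes. Over the 52 genes its log2 deviation from the mean of shControl replicates 2 and 3 correlated with the GC content of the longest transcript at -0.91, a description over genes that share 1 library. In the 18 genes with the lowest GC content (37.7% to 43.6%) it was higher by a median of 0.62, and in the 18 with the highest (50.7% to 65.0%) it was lower, at -0.44. It was the highest of the 6 libraries for 26 genes and the lowest for 15. It was low for GC-rich CDT1, POLD1 and TK1 and high for GC-poor POLA1, RFC3 and DBF4. The part of GC content in each call was not tested beyond the correction given above.

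**Figure D2:**
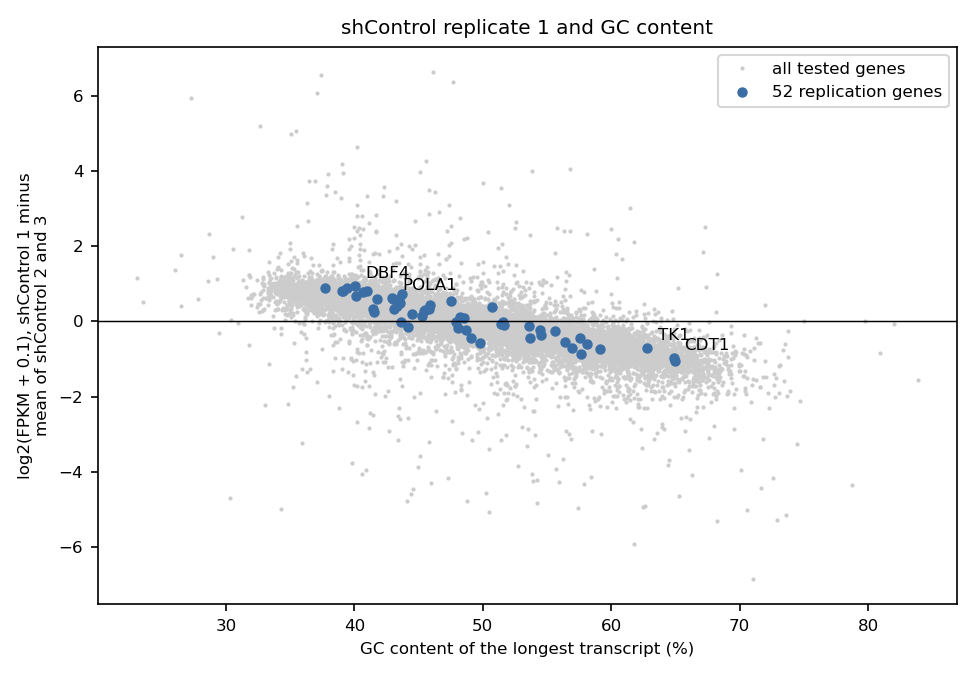
For every tested gene (grey) and the 52 replication genes (blue), the vertical axis gives log2(FPKM + 0.1) of shControl replicate 1 minus the mean of shControl replicates 2 and 3, and the horizontal axis the GC content of the longest transcript in percent. The replication genes follow the slope of all genes, with DBF4 at 0.93 and CDT1 at -0.98.

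MCM6, a subunit of the MCM2-7 helicase ring, was the gene that rose. It was at 37.8, 39.0 and 36.4 FPKM in shHYOU1 libraries 1, 2 and 3, against 30.4, 24.6 and 24.1 FPKM in shControl libraries 1, 2 and 3. The groups did not overlap. The log2 difference came to 0.52 ± 0.13 (SE; limma, adjusted p = 0.0471), and 0.63 without shControl replicate 1 (limma, adjusted p = 0.000144). MCM6 lies on the minus strand of chromosome 2, at 135839626 to 135876426 on GRCh38.

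GINS2 and GINS4, 2 of the 4 subunits of the GINS complex, fell. GINS2 (chromosome 16, 85676198 to 85690073, minus strand) was at 7.26, 9.67 and 8.51 FPKM in shHYOU1 libraries 1, 2 and 3, against 12.0, 17.2 and 15.6 FPKM in shControl libraries 1, 2 and 3. It had a log2 difference of -0.80 ± 0.18 (SE; limma, adjusted p = 0.0373), the largest fall among the 52 genes. GINS4 (chromosome 8, 41529206 to 41545046, plus strand) was at 5.02, 5.72 and 5.51 FPKM in shHYOU1 libraries, against 8.09, 8.69 and 7.74 FPKM in shControl libraries. All shHYOU1 values of both genes lay below all shControl values. For GINS4 the log2 difference came to -0.59 ± 0.12 (SE; limma, adjusted p = 0.0301). Without shControl replicate 1 the values were -0.95 for GINS2 (limma, adjusted p = 0.000625) and -0.59 for GINS4 (limma, adjusted p = 0.00165).

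RRM2, the small subunit of ribonucleotide reductase, which sets the enzyme's S-phase activity, fell as well. It was at 9.76, 9.62 and 9.49 FPKM in shHYOU1 libraries 1, 2 and 3, against 17.1, 13.5 and 13.4 FPKM in shControl libraries 1, 2 and 3, with no overlap. The log2 difference came to -0.59 ± 0.14 (SE; limma, adjusted p = 0.037), and -0.48 without shControl replicate 1 (limma, adjusted p = 0.000791). RRM2 lies on the plus strand of chromosome 2, at 10120698 to 10131419, and a second annotated gene on that strand, AC007240.1 at a mean of 0.457 FPKM, overlaps it.

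Each of these 4 calls was lost when any library other than shControl replicate 1 was left out. The share of all tested genes that were called also fell in these fits, from 12.3% to between 0.394% and 8.21%. The adjusted p then ranged over 0.101 to 0.189 for MCM6, 0.0795 to 0.148 for GINS2, 0.0567 to 0.145 for GINS4 and 0.0581 to 0.162 for RRM2 (limma). The log2 fold changes kept their sign in all 19 alternative fits, at 0.42 to 0.64 for MCM6, -0.95 to -0.70 for GINS2, -0.62 to -0.52 for GINS4 and -0.67 to -0.47 for RRM2.

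**Figure D3:**
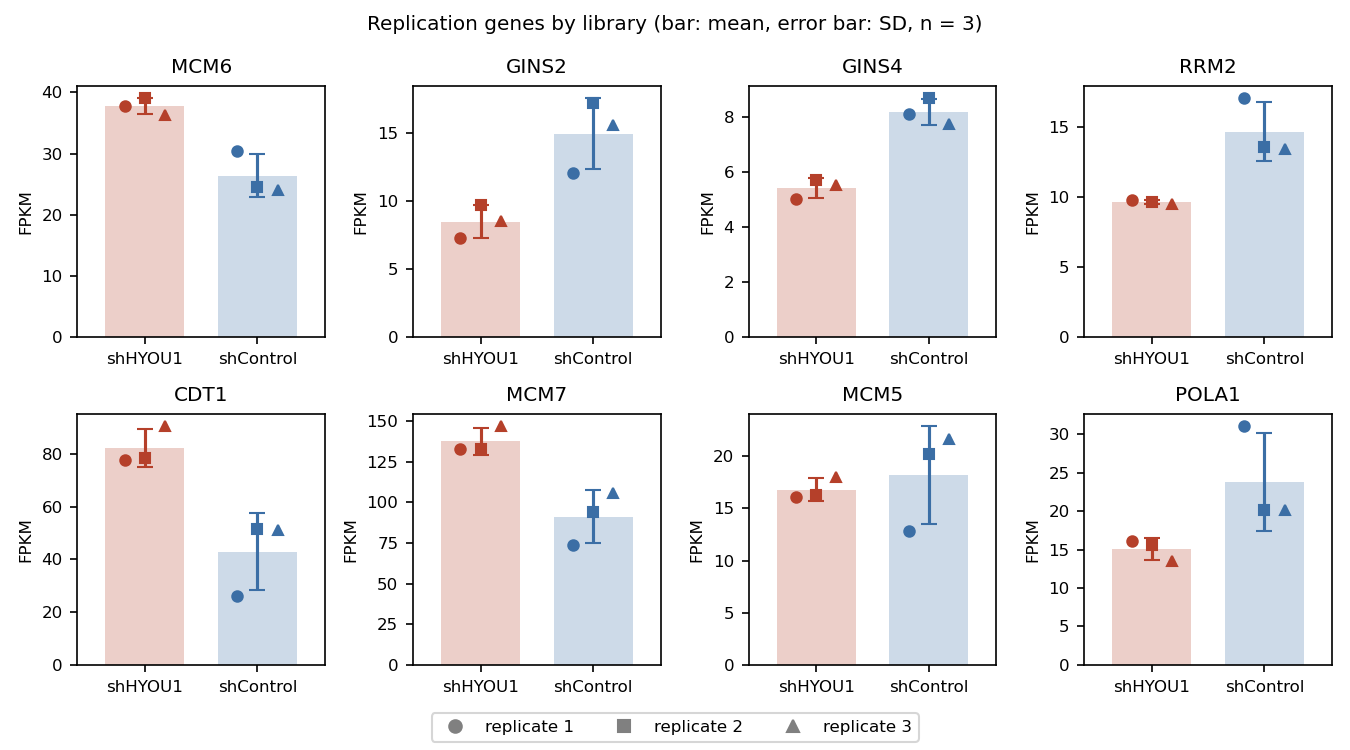
FPKM of 8 replication genes in each library, shHYOU1 left and shControl right, with the mean as a bar and the SD as an error bar (n = 3 each). MCM6, CDT1 and MCM7 were higher and GINS2, GINS4, RRM2 and POLA1 lower in every shHYOU1 library than in any shControl library; for MCM5 shControl replicate 1 lay below all shHYOU1 libraries and the other controls above them.

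Promoter sequences are shown for MCM6, GINS2 and RRM2, which were called, and for CDT1, which had the largest difference, since E2F sites are known in many S-phase genes and these genes moved in both directions. Each run gives the 160 bases before the RefSeq start (GRCh38.p14), 5′ to 3′ on the gene's strand. Capitals mark E2F-type words and CCAAT boxes, the latter being the site of the factor NF-Y. The windows are chr2:135876444-135876603 (minus strand) for MCM6, chr16:88803629-88803788 (plus strand) for CDT1, chr16:85688955-85689114 (minus strand) for GINS2 and chr2:10122579-10122738 (plus strand) for RRM2. For CDT1, GINS2 and RRM2 the RefSeq start lies inside the gene's coordinates in the deposited table.
MCM6: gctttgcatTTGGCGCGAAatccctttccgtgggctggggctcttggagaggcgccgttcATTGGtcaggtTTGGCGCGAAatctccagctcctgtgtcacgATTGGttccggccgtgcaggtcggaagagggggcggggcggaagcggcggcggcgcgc
CDT1: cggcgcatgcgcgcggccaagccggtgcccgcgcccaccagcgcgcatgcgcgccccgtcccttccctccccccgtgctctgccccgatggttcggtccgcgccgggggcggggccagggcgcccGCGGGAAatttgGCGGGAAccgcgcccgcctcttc
GINS2: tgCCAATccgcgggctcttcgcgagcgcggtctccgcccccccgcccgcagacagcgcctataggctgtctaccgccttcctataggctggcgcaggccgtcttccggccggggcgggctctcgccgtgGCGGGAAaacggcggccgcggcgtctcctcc
RRM2: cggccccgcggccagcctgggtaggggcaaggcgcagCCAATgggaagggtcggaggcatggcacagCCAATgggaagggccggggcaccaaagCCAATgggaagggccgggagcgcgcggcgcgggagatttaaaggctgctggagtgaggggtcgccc

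The E2F-type words were searched on both strands. One was TTGGCGC, which occurs in the promoter of MCM6. Another, read from the opposite strand, was TTCGCGC, and both can overlap in a single site. The last of these words was TTCCCGC. RefSeq promoters of 300 bases around the start were given for 46 of the 52 genes. Of these, 31 (67.4%) held an E2F-type word, against 11.2% of 27305 promoters, and 25 (54.3%) held CCAAT, against 35.7%. The cell cycle homology region was searched as TTTGAA and also as TTCGAA, and these words stood in 3 of the 46 promoters (6.52%), against 16.6% of all. E2F-type words occurred on both sides of the comparison: in 5 of the 9 genes that rose without shControl replicate 1, in 8 of the 10 matched genes that fell and in 18 of the 27 that were not called. The RRM2 window held none of these E2F-type words and 3 CCAAT boxes, and the CDT1 window held 2 E2F-type words and no CCAAT. A match is only a description of the letters in the window.

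Among the 6 subunits of ORC, which marks the origins, none was called with all 6 libraries. ORC1 had the highest level, at 16.2, 16.5 and 14.7 FPKM in shHYOU1 libraries, against 20.8, 15.5 and 16.3 FPKM in shControl libraries. ORC5 had the largest difference of the 6, at -0.38 (limma, adjusted p = 0.341), with 4.41, 4.36 and 3.59 FPKM in shHYOU1 libraries and 7.83, 4.64 and 4.23 FPKM in shControl libraries, where replicate 1 was the high one. Without shControl replicate 1, ORC3 and ORC6 rose by 0.35 and 0.40 (limma, adjusted p = 0.0165 and 0.00497). ORC6 was at 8.76, 9.34 and 8.65 FPKM in shHYOU1 libraries, against 9.93, 7.02 and 6.45 FPKM in shControl libraries. ORC3 was at 9.92, 8.69 and 8.83 FPKM in shHYOU1 libraries, against 13.3, 6.71 and 7.58 FPKM in shControl libraries. Neither passed after the GC correction with all 6 libraries (limma, adjusted p = 0.136 for ORC3 and 0.182 for ORC6). With that correction and without shControl replicate 1 both rose (limma, adjusted p = 0.0317 for ORC3 and 0.00381 for ORC6). The 6 subunits spanned means of 2.90 FPKM (ORC4) to 16.7 FPKM (ORC1).

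CDT1, the MCM loading factor, had the largest difference of the 52 genes with all 6 libraries but a wide error. It was at 77.8, 78.4 and 90.7 FPKM in shHYOU1 libraries 1, 2 and 3, against 26.1, 51.5 and 51.2 FPKM in shControl libraries 1, 2 and 3. The groups did not overlap, and shControl replicate 1 stood far below the other controls. The log2 difference, 1.00 ± 0.28 (SE), missed the threshold (limma, adjusted p = 0.0629). It was smaller and passed without shControl replicate 1, at 0.68 (limma, adjusted p = 0.000328), and after the GC correction, at 0.53 (limma, adjusted p = 0.000605).

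Geminin, the inhibitor of CDT1, was at 28.6, 31.0 and 30.1 FPKM in shHYOU1 libraries, against 33.9, 23.1 and 25.2 FPKM in shControl libraries. GMNN differed by 0.14 (limma, adjusted p = 0.577), and rose by 0.31 without shControl replicate 1 (limma, adjusted p = 0.00766) and by 0.25 after the GC correction (limma, adjusted p = 0.0317). The ratio of CDT1 to GMNN FPKM was 2.73, 2.53 and 3.02 in shHYOU1 libraries, against 0.768, 2.23 and 2.03 in shControl libraries. The ratios did not overlap, with a 2-sided exact permutation p of 0.1, the smallest that 3 against 3 libraries allow. The lowest ratio, far below the others, was that of shControl replicate 1. CDC6, which loads MCM together with CDT1, was at 23.1, 22.8 and 18.8 FPKM in shHYOU1 libraries, against 26.4, 20.5 and 22.2 FPKM in shControl libraries, and differed by -0.09 (limma, adjusted p = 0.693).

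The 6 subunits of the MCM2-7 ring did not move together. MCM7 had the highest level of the 52 genes, at 133, 133 and 147 FPKM in shHYOU1 libraries, against 73.8, 93.9 and 106 FPKM in shControl libraries, without overlap. Its log2 fold change of 0.61 was at the threshold (limma, adjusted p = 0.0508). It passed without shControl replicate 1, at 0.46 (limma, adjusted p = 0.00189), and after the GC correction, at 0.39 (limma, adjusted p = 0.00459). MCM5 went the other way in these fits, at -0.32 without shControl replicate 1 (limma, adjusted p = 0.0103) and -0.28 after the GC correction (limma, adjusted p = 0.0147).

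With all 6 libraries MCM5 differed by -0.08 (limma, adjusted p = 0.808), at 16.1, 16.2 and 18.0 FPKM in shHYOU1 libraries and 12.9, 20.2 and 21.6 FPKM in shControl libraries. The ratio of MCM7 to MCM5 FPKM was 8.25, 8.18 and 8.16 in shHYOU1 libraries, against 5.74, 4.65 and 4.90 in shControl libraries (2-sided exact permutation p = 0.1, the smallest possible here). In this ratio shControl replicate 1 did not stand below the other controls. The ratio of MCM6 to MCM5 overlapped between the groups, at 2.35, 2.40 and 2.02 in shHYOU1 libraries, against 2.36, 1.22 and 1.11 in shControl libraries (2-sided exact permutation p = 0.3). The overlap came from shControl replicate 1 alone, and shControl replicates 2 and 3 lay below every shHYOU1 library. Of 5 ratios compared in all, the 3 that did not overlap had a Benjamini-Hochberg adjusted p of 0.167 (exact permutation). No ratio could pass, as the smallest p possible here, 0.1, lies above the threshold for a call. This test therefore cannot decide whether the ratios differ. Apart from CDT1 over GMNN, each ratio paired a gene called without shControl replicate 1 with one not called or called the other way there. The lack of overlap is therefore not separate evidence from those calls. MCM2, MCM3 and MCM4 were not called in these 3 fits. Their log2 fold changes were 0.23, -0.14 and 0.09 with all 6 libraries and 0.03, -0.15 and 0.11 without shControl replicate 1. With the GC correction and without shControl replicate 1, MCM4 rose by 0.13 (limma, adjusted p = 0.0342). MCM3 was lower and MCM4 higher in every shHYOU1 library than in any shControl library, by small margins: MCM3 averaged 74.5 ± 2.71 FPKM in shHYOU1 and 82.3 ± 2.42 FPKM in shControl libraries, and MCM4 averaged 66.1 ± 1.22 FPKM in shHYOU1 and 62.3 ± 1.97 FPKM in shControl libraries (SD, n = 3 each).

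**Figure D4:**
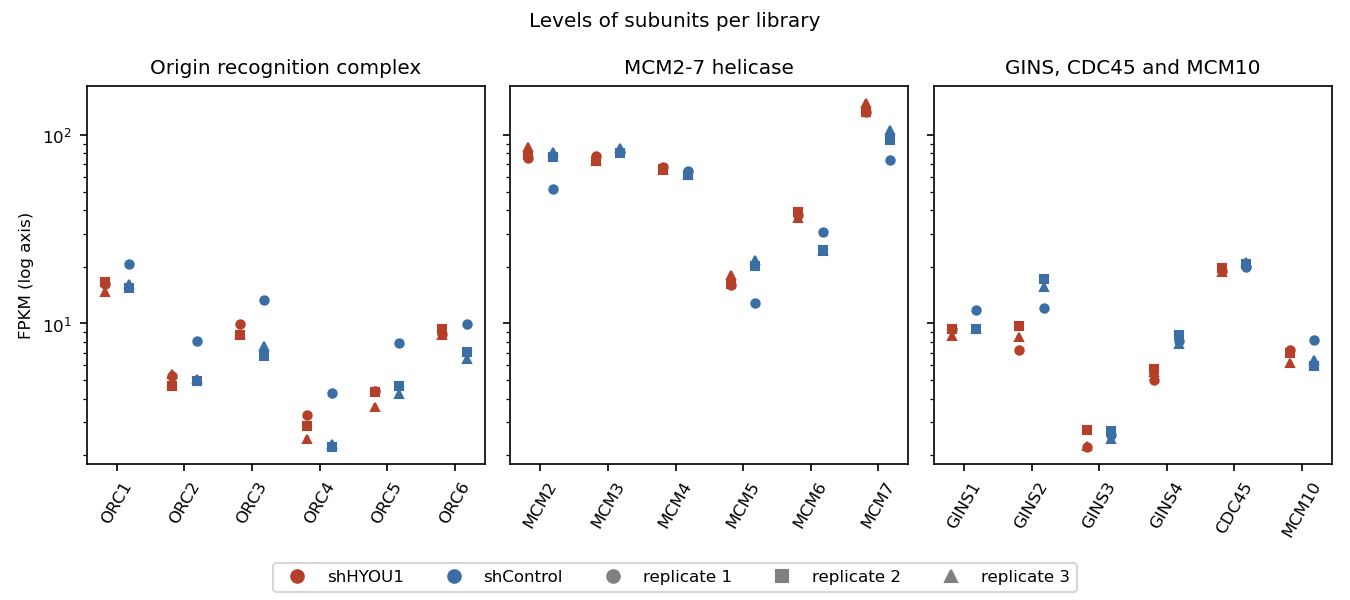
FPKM on a log axis of the ORC subunits, the MCM2-7 subunits and the GINS subunits with CDC45 and MCM10, per library, shHYOU1 left and shControl right of each gene's tick. MCM5 and MCM6 lay below the other MCM subunits, GINS3 was the lowest GINS subunit, and shControl replicate 1 (blue circle) was above the other controls for all 6 ORC genes.

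Of the 9 factors that activate the helicase, GINS2 and GINS4 fell with all 6 libraries and the other 7 did not pass. The other GINS subunits, GINS1 and GINS3, differed by -0.14 and -0.11 (limma, adjusted p = 0.508 and 0.644) and by -0.03 and -0.11 without shControl replicate 1. GINS1 was at 9.36, 9.38 and 8.57 FPKM in shHYOU1 libraries, against 11.7, 9.33 and 9.31 FPKM in shControl libraries. The ratio of GINS1 to GINS2 was 1.29, 0.970 and 1.01 in shHYOU1 libraries, against 0.973, 0.543 and 0.598 in shControl libraries, and the groups overlapped (2-sided exact permutation p = 0.2). Here too the overlap came from shControl replicate 1 alone. CDC45, the partner of GINS in the helicase, was at 18.9, 19.7 and 18.7 FPKM in shHYOU1 libraries, against 19.8, 20.7 and 21.2 FPKM in shControl libraries, a difference of -0.11 (limma, adjusted p = 0.513) with no overlap. MCM10, which helps to start unwinding, averaged 6.78 ± 0.546 FPKM in shHYOU1 and 6.83 ± 1.16 FPKM in shControl libraries (SD, n = 3 each).

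The kinase subunits CDC7 and DBF4 phosphorylate the MCM ring, and DBF4 is the regulatory one. DBF4 was at 10.1, 11.7 and 10.1 FPKM in shHYOU1 libraries, against 12.7, 7.52 and 5.82 FPKM in shControl libraries. It differed by 0.36 with all libraries (limma, adjusted p = 0.412), rose by 0.67 without shControl replicate 1 (limma, adjusted p = 0.00312) and by 0.53 after the GC correction (limma, adjusted p = 0.018). CDC7 differed by -0.18 and did not pass (limma, adjusted p = 0.658). CDC25A, the phosphatase that activates CDK2, averaged 12.0 ± 0.223 FPKM in shHYOU1 and 10.3 ± 0.440 FPKM in shControl libraries (SD, n = 3 each), without overlap. It differed by 0.21 with all 6 libraries (limma, adjusted p = 0.235). With the GC correction and without shControl replicate 1 it rose by 0.19 (limma, adjusted p = 0.0254).

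POLA1, the catalytic subunit of polymerase alpha, which starts each new strand with primase, was the one member of its 4-subunit complex with a call in any of the 3 fits. It was at 16.2, 15.5 and 13.5 FPKM in shHYOU1 libraries, against 31.1, 20.2 and 20.1 FPKM in shControl libraries, with no overlap. POLA1 differed by -0.63 with all libraries (limma, adjusted p = 0.0868). It fell by 0.42 without shControl replicate 1 (limma, adjusted p = 0.00488) and by 0.51 after the GC correction (limma, adjusted p = 0.00406). The pseudogene EEF1B2P3, at a mean of 22.0 FPKM, lies within the span of POLA1 on the other strand. Whether it touches an exon was not examined and whether counting used strand is not stated, so the POLA1 value is uncertain. POLA2, PRIM1 and PRIM2 differed by -0.10, -0.11 and -0.03, with adjusted p between 0.661 and 0.893 (limma).

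Polymerase epsilon extends the leading strand and polymerase delta the lagging strand, and none of their 5 genes was called with all 6 libraries. POLE, the catalytic subunit of epsilon, was at 7.14, 6.78 and 7.93 FPKM in shHYOU1 libraries, against 8.02, 9.45 and 9.60 FPKM in shControl libraries. POLE2, its second subunit, was at 3.57, 3.50 and 3.04 FPKM in shHYOU1 libraries, against 7.43, 4.42 and 4.54 FPKM in shControl libraries. Neither pair of groups overlapped. With all libraries POLE differed by -0.30 (limma, adjusted p = 0.175) and POLE2 by -0.64 (limma, adjusted p = 0.109). Without shControl replicate 1 they fell by 0.39 and 0.41 (limma, adjusted p = 0.00853 and 0.0171), and after the GC correction by 0.46 and 0.53 (limma, adjusted p = 0.0067 and 0.0143).

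The delta subunits POLD1, POLD2 and POLD3 were not called in these 3 fits. POLD2 had the highest level of the 5 polymerase genes, at 82.6, 88.4 and 92.0 FPKM in shHYOU1 libraries, against 51.6, 81.7 and 89.1 FPKM in shControl libraries, and differed by 0.28 (limma, adjusted p = 0.408). POLD1, the catalytic subunit, differed by 0.48 with all libraries (limma, adjusted p = 0.305) and by 0.13 without shControl replicate 1 (limma, adjusted p = 0.192), with the 95% interval of the second value from -0.04 to 0.30. POLD1 is the most GC-rich of the 52 genes, and it was at 23.4, 24.2 and 26.9 FPKM in shHYOU1 libraries, against 10.8, 22.8 and 22.5 FPKM in shControl libraries. The difference between delta and epsilon was not tested.

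PCNA, the sliding clamp, was at 89.0, 92.6 and 87.3 FPKM in shHYOU1 libraries, against 113, 105 and 101 FPKM in shControl libraries. The groups did not overlap. PCNA differed by -0.25 (limma, adjusted p = 0.151), fell by 0.20 without shControl replicate 1 (limma, adjusted p = 0.0243) and did not pass after the GC correction (limma, adjusted p = 0.0666). It fell with that correction and without shControl replicate 1 (limma, adjusted p = 0.0102). Of the RFC subunits, which open the clamp, RFC3 was at 21.0, 25.1 and 22.9 FPKM in shHYOU1 libraries, against 30.6, 17.5 and 17.1 FPKM in shControl libraries. It differed by 0.13 (limma, adjusted p = 0.733), rose by 0.40 without shControl replicate 1 (limma, adjusted p = 0.00491) and by 0.31 after the GC correction (limma, adjusted p = 0.0325). RFC1, the large subunit, had the largest difference of the group, at -0.34 (limma, adjusted p = 0.282), with 10.1, 10.1 and 9.43 FPKM in shHYOU1 libraries and 16.6, 11.8 and 9.95 FPKM in shControl libraries. RFC2, RFC4 and RFC5 differed by 0.06, -0.24 and -0.10 and were not called in these fits.

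The genes of Okazaki fragment processing and the single-strand binding protein RPA were not called in these 3 fits. FEN1, the flap nuclease, was at 74.4, 77.1 and 75.9 FPKM in shHYOU1 libraries, against 56.5, 74.0 and 79.9 FPKM in shControl libraries, a difference of 0.13 (limma, adjusted p = 0.588). LIG1, the ligase that seals the fragments, averaged 4.05 ± 0.268 FPKM in shHYOU1 and 3.93 ± 0.848 FPKM in shControl libraries (SD, n = 3 each). RPA1, the large RPA subunit, was at 47.5, 45.4 and 47.1 FPKM in shHYOU1 libraries, against 47.8, 43.0 and 45.8 FPKM in shControl libraries. Its difference of 0.04 had a 95% interval from -0.21 to 0.28. RPA2 had the largest difference of the 3, at 0.15 (limma, adjusted p = 0.414), with 29.8, 31.5 and 27.3 FPKM in shHYOU1 libraries and 24.4, 26.9 and 28.4 FPKM in shControl libraries. RPA3 differed by -0.14, and its value is uncertain because UMAD1, at a mean of 4.76 FPKM, overlaps it on the other strand.

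CHAF1A and CHAF1B, subunits of the CAF-1 histone chaperone, and UHRF1, which guides maintenance methylation of new DNA, were not called with all 6 libraries. CHAF1A was at 22.3, 21.8 and 22.5 FPKM in shHYOU1 libraries, against 14.2, 25.9 and 26.0 FPKM in shControl libraries. It differed by 0.06 (limma, adjusted p = 0.88), and its sign turned without shControl replicate 1, at -0.23 (limma, adjusted p = 0.0144). After the GC correction it was at -0.15 and did not pass (limma, adjusted p = 0.202). CHAF1B was at 8.26, 9.60 and 8.32 FPKM in shHYOU1 libraries, against 9.15, 10.7 and 10.7 FPKM in shControl libraries. It differed by -0.22 (limma, adjusted p = 0.295) and fell by 0.29 without shControl replicate 1 (limma, adjusted p = 0.0271), and was at -0.20 after the GC correction and did not pass (limma, adjusted p = 0.138). With the GC correction and without shControl replicate 1, CHAF1A and CHAF1B both fell (limma, adjusted p = 0.00625 and 0.031). UHRF1 was at 23.9, 20.6 and 23.4 FPKM in shHYOU1 libraries, against 18.5, 22.6 and 24.8 FPKM in shControl libraries, a difference of 0.05 (limma, adjusted p = 0.837).

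In nucleotide supply, RRM2 was the gene called with all 6 libraries. Its partner RRM1, the large subunit of ribonucleotide reductase, was at 75.8, 74.7 and 73.3 FPKM in shHYOU1 libraries, against 113, 72.4 and 78.0 FPKM in shControl libraries. RRM1 differed by -0.21 (limma, adjusted p = 0.462) and by -0.01 without shControl replicate 1, with a 95% interval from -0.15 to 0.13. The ratio of RRM1 to RRM2 FPKM was 7.77, 7.76 and 7.72 in shHYOU1 libraries, against 6.61, 5.35 and 5.82 in shControl libraries. These did not overlap, and the 2-sided exact permutation p was 0.1, the smallest that the design allows.

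TK1, the thymidine salvage kinase, had the highest level of this group, at 115, 131 and 130 FPKM in shHYOU1 libraries, against 62.9, 93.3 and 113 FPKM in shControl libraries. It differed by 0.52 (limma, adjusted p = 0.161), rose by 0.28 without shControl replicate 1 (limma, adjusted p = 0.0428) and was at 0.12 after the GC correction (limma, adjusted p = 0.313). TYMS, which makes thymidylate, was at 9.52, 9.54 and 10.3 FPKM in shHYOU1 libraries, against 8.61, 12.7 and 13.3 FPKM in shControl libraries. It differed by -0.21 (limma, adjusted p = 0.469) and fell by 0.41 without shControl replicate 1 (limma, adjusted p = 0.0027), but not after the GC correction (limma, adjusted p = 0.271). ENOSF1, at a mean of 2.31 FPKM, overlaps TYMS on the other strand, so its value is uncertain. DUT, which removes dUTP, was at 30.8, 30.0 and 27.3 FPKM in shHYOU1 libraries, against 30.8, 34.7 and 33.4 FPKM in shControl libraries. It differed by -0.17 (limma, adjusted p = 0.351) and fell by 0.21 without shControl replicate 1 (limma, adjusted p = 0.0379), but was at -0.06 after the GC correction (limma, adjusted p = 0.73). With the GC correction and without shControl replicate 1, TYMS and DUT fell (limma, adjusted p = 0.00197 and 0.0118). TK1 was not called in that fit (limma, adjusted p = 0.081).

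Across the 52 genes the groups did not overlap for 18 (34.6%, against 44.4% of all tested genes), with shHYOU1 higher in 7 and lower in 11. Among all tested genes shHYOU1 was higher without overlap in 23.8% and lower in 20.6%. The 7 were CDT1, MCM4, MCM6, MCM7, CDC25A, POLD1 and TK1. The 11 were MCM3, CDC45, GINS2, GINS4, POLA1, POLE, POLE2, PCNA, RFC4, RRM2 and DUT. The fewest fragments of any of the 52 genes in a library were 157 and the most 11300.

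A second list held 97 other genes of the pathway, with the E2F and G1/S regulators, further fork factors, the S-phase checkpoint and other nucleotide enzymes. Of these, 91 were tested, and 3 rose and 4 fell, against 6.60% and 5.66% of all tested genes. The median log2 fold change was -0.05. Without shControl replicate 1, 22 rose and 19 fell, against 24.6% and 19.7% of all tested genes, and with GC corrected the counts were 17 higher and 21 lower, against 20.4% and 20.2%.

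In this list E2F7, a repressor of E2F target genes, rose. It was at 12.5, 11.6 and 11.1 FPKM in shHYOU1 libraries, against 9.22, 6.46 and 6.60 FPKM in shControl libraries, which gives a rise of 0.67 on the log2 scale (limma, adjusted p = 0.0494). LRWD1, which binds ORC, rose by 0.76 (limma, adjusted p = 0.0264), with 7.80, 8.86 and 9.13 FPKM in shHYOU1 libraries and 4.32, 5.25 and 5.64 FPKM in shControl libraries. POLD4, the smallest subunit of polymerase delta, rose by 0.62 (limma, adjusted p = 0.0319), with 3.33, 3.27 and 3.47 FPKM in shHYOU1 libraries and 2.08, 2.26 and 2.14 FPKM in shControl libraries. The groups did not overlap for these 3 genes. After the GC correction LRWD1 and POLD4 were at 0.38 and 0.36 and did not pass (limma, adjusted p = 0.0911 and 0.144). With that correction and without shControl replicate 1 both rose (limma, adjusted p = 0.000979 and 0.00382).

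Of the genes that fell in this list, SAMHD1, FANCD2 and TIPIN are described here. SAMHD1, which degrades deoxynucleotides, fell by 0.82 (limma, adjusted p = 0.0263), with 2.43, 2.70 and 2.42 FPKM in shHYOU1 libraries and 5.41, 4.31 and 3.97 FPKM in shControl libraries.

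FANCD2, of the Fanconi anaemia pathway of crosslink repair and fork protection, fell by 0.81 (limma, adjusted p = 0.0423), with 3.85, 3.31 and 3.83 FPKM in shHYOU1 libraries and 8.45, 5.69 and 5.67 FPKM in shControl libraries. TIPIN, of the fork protection complex with TIMELESS, fell by 0.69 (limma, adjusted p = 0.0425), with 3.57, 3.62 and 3.09 FPKM in shHYOU1 libraries and 6.76, 5.23 and 4.93 FPKM in shControl libraries. These 3 genes were lower in every shHYOU1 library than in any shControl library, and their falls passed after the GC correction and without shControl replicate 1. Among the 15 tested genes of fork protection and the S-phase checkpoint, 2 fell and 0 rose, where 5.66% of all tested genes fell and 6.60% rose, with a median log2 fold change of -0.29. In this group 4 fell and 1 rose without shControl replicate 1, where 19.7% and 24.6% of all tested genes did, and 6 fell and 1 rose with the GC correction, where 20.2% and 20.4% did. Among the 22 E2F and G1/S genes 1 rose and 0 fell, with a median of 0.07. Here 9 rose and 4 fell without shControl replicate 1, where 24.6% and 19.7% of all tested genes did, and 8 rose and 5 fell with the GC correction, where 20.4% and 20.2% did. When shHYOU1 replicate 1, 2 or 3 or shControl replicate 2 was left out, none of the 91 genes was called. In those fits 0.394% to 2.87% of all tested genes were called. Without shControl replicate 3, where 8.21% of all tested genes were called, LRWD1 rose. Among those that fell there were SAMHD1 and RB1, the retinoblastoma protein that holds E2F factors inactive. RB1 was at 8.78, 9.38 and 8.51 FPKM in shHYOU1 libraries, against 25.3, 15.4 and 12.7 FPKM in shControl libraries. It was not called with all 6 libraries (limma, adjusted p = 0.0602). It fell without shControl replicate 1 and after the GC correction (limma, adjusted p = 0.00111 and 0.000648).

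**Figure D5:**
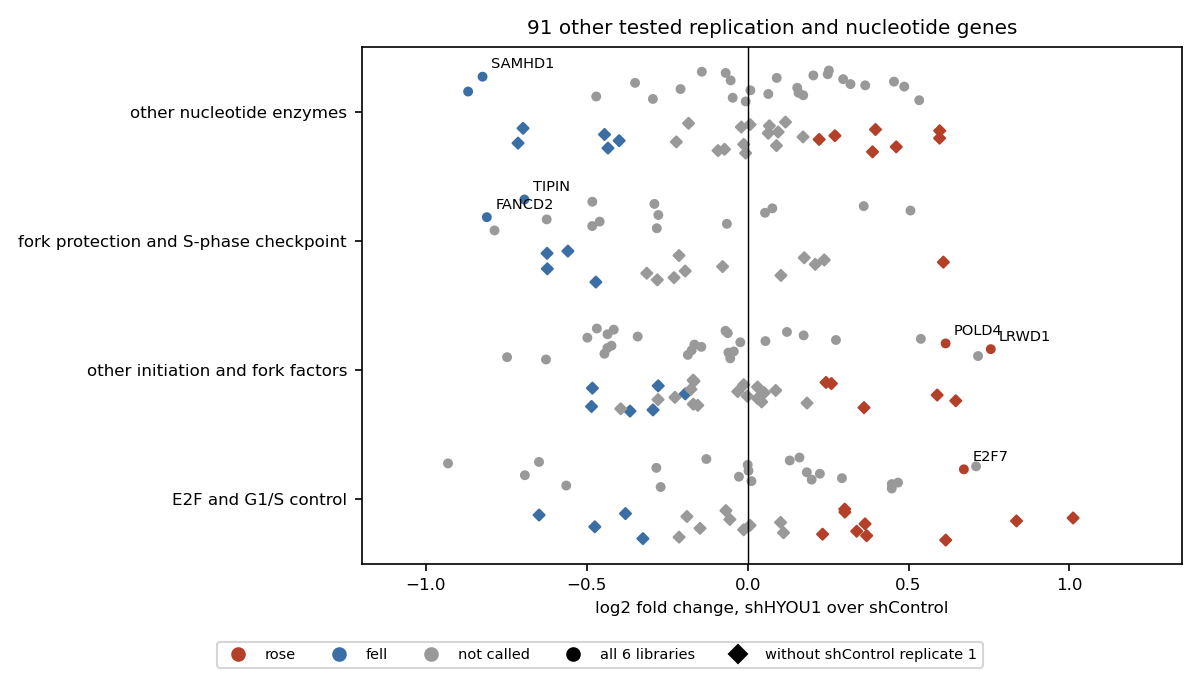
Each point is the log2 fold change, shHYOU1 over shControl, of 1 of the 91 other tested genes, by functional group, with all 6 libraries (circles, upper row of each group) and without shControl replicate 1 (diamonds, lower row). With all libraries 3 genes were called higher and 4 lower, of which 6 are named.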

How the data were processed

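RNA of 6 libraries labelled Hep3B, 3 with shHYOU1 and 3 with shControl, was measured after enrichment with oligo-dT, per the labels' protocols. The authors deposited 1 table of FPKM per gene. The aligner, the counter and the genome build were not given in the sources used here. The table's 58735 identifiers and coordinates match GENCODE 29 (GRCh38), and no value column was left unmapped. FPKM multiplied by the deposited gene length came out in whole steps for 100% of values within 0.01 of a fragment, which gave 16893091 to 18233240 fragments per library. A count of 3 fragments in a gene of 1 kb equals 0.160 to 0.176 FPKM; this limit covers counting error only. Whether counting used strand is not stated. Overlaps between genes were found over whole gene spans, and whether they touch exons was not examined. Further overlaps on the other strand include SLC25A40 with DBF4, WSB2 with RFC5 and TMEM258 with FEN1, at means of 6.67, 18.0 and 27.6 FPKM.

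The 12448 genes whose mean reached 1 FPKM were tested with limma 3.58.1 in R 4.3.3 (empirical Bayes with trend and robust settings) on log2(FPKM + 0.1), with Benjamini-Hochberg adjustment over all 12448 genes, and called at an adjusted p under 0.05. Fold changes on this scale understate those of low genes. The procedure was tested on simulated data, with independent normal noise for each gene and the same spread in all 6 libraries. No simulated library departed along GC content, so this does not cover the departure of shControl replicate 1. Ratios between genes were compared by 2-sided exact permutation tests over the 6 libraries. The GC correction subtracted a lowess curve (span 0.3) of each library's deviation on transcript GC content.

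The members and lists were chosen with earlier results of these data known. Named genes are HYOU1, every gene called, the highest and the most different gene of each functional group, and every gene whose call changed without shControl replicate 1 or after the GC correction; for other pathway genes, those called, of which 1 is not reported here. Other genes are named where they complete a complex or do not overlap between groups. Alternatives were other pseudocounts, filters, scalings and normalizations, array weights (gene-by-gene method), voom on recovered fragments, a replicate block, and each library left out.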

Additional observations from a re-analysis of the deposited data

How the results depend on the processing

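Counts of calls were higher without shControl replicate 1 and lower without any other library, with 1 exception. Without shControl replicate 3 the count of replication genes that rose stayed at 1, but the gene was another one. It was MCM7, at 0.72 (limma, adjusted p = 0.0468), while MCM6 was not called (limma, adjusted p = 0.101). The count over all genes was 1526 of 12448 tested (12.3%). It was 938 of 7178 (13.1%) with a filter at 5 FPKM, which tested 46 of the 52 replication genes. Looser filters gave 1433 of 20512 (6.99%) at 0.1 FPKM and 770 of 30059 (2.56%) with no filter. Of the 12448 genes, a pseudocount of 1 gave 1611 (12.9%), TPM scaling 1482 (11.9%) and voom 1806 (14.5%). A replicate block gave 940 (7.55%), the GC correction 5048 (40.6%), both of these 4504 (36.2%) and array weights 6417 (51.55%). With the GC correction and without shControl replicate 1 the count was 6049 (48.6%). With 1 library left out it was 49 to 5518 (0.394% to 44.3%). The lowest came without shHYOU1 replicate 3 and the highest without shControl replicate 1. Of the 52 replication genes, 1 rose; the count was 2 with a pseudocount of 1, a filter at 5 FPKM or TPM scaling, 0 with a filter at 0.1 FPKM, no filter or a replicate block, 6 with the GC correction, 4 with that and the block, 10 with array weights, 3 with voom, 10 with the GC correction and without shControl replicate 1, and 0 to 9 with 1 library left out. The number that fell was 3; it was 1 with a filter at 0.1 FPKM or a replicate block, 0 with no filter, 7 with the GC correction with or without the block, 12 with array weights, 12 with the GC correction and without shControl replicate 1, and 0 to 12 with 1 library left out. Of the other pathway genes 3 rose; the count was 0 with no filter, 1 with a replicate block, 17 with the GC correction, 15 with that and the block, 22 with array weights, 6 with voom, 23 with the GC correction and without shControl replicate 1, and 0 to 22 with 1 library left out. The number that fell was 4; it was 2 with a filter at 0.1 or 5 FPKM, 0 with no filter, 1 with a replicate block, 21 with the GC correction with or without the block, 23 with array weights, 23 with the GC correction and without shControl replicate 1, and 0 to 19 with 1 library left out. The cause of these shifts was not tested, except that looser filters test more genes.

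CHAF1A was at 0.06 with all libraries and was called as a fall at -0.22 with array weights, -0.23 without shControl replicate 1 and -0.24 with the GC correction and without that library; with 1 library left out its values ran from -0.23 to 0.21. Of 1112 comparisons of a single named gene with an alternative, 952 kept their call or lack of one (74 of these, uncalled either way, changed sign), 84 lost and 73 gained a call, and 3 reversed. The deviations of same-numbered libraries from their group means correlated at 0.12, -0.09 and 0.17. shHYOU1 replicates 1 and 3 correlated best with the same-numbered control, and shHYOU1 replicate 2 with shControl replicate 1 at 0.09. With 3 libraries in each group these values cannot decide whether same-numbered libraries are paired, and the labels do not say. With the replicate block MCM6, GINS4 and RRM2 had adjusted p of 0.0784, 0.0662 and 0.0664 and GINS2 0.0370 (limma). Each of the 52 genes had at least 157 fragments in every library.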

Other observations

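Of the other pathway genes, 6 had a mean under 1 FPKM and were not tested, among them MCM9, RNASEH2A, RNASEH2B, BRCA2 and ZRANB3. BRCA2, which acts in homologous recombination and protects stalled forks, was at 0.328, 0.279 and 0.354 FPKM in shHYOU1 libraries 1, 2 and 3, against 1.29, 0.700 and 0.608 FPKM in shControl libraries 1, 2 and 3, without overlap. These rest on 72, 63 and 76 fragments in shHYOU1 libraries and 271, 161 and 134 in shControl libraries. RNASEH2A, the catalytic subunit of the nuclease that removes ribonucleotides from DNA, was at 0.306, 0.373 and 0.157 FPKM in shHYOU1 libraries, against 0.273, 0.293 and 0.336 FPKM in shControl libraries, and the groups overlapped. RNASEH2A thus stood far below genes such as PCNA and MCM7 in every library. Its values rest on 20, 25 and 10 fragments in shHYOU1 libraries and 17, 20 and 22 in shControl libraries. Whether another gene overlaps RNASEH2A and takes its fragments was not examined.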
